A study of Mus musculus with 3 samples.

Results

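The genes of cholesterol and fatty acid synthesis were examined by RNA-seq in stable BCR::ABL1+ *Cdk6* KM/KM cell lines. The 30 genes were chosen by symbol, as regulators and enzymes of both pathways, and all 30 were found by Ensembl identifier among the 50686 genes of the count table. By role they are 5 regulators, 18 enzymes of cholesterol synthesis and 7 enzymes that make, lengthen or desaturate fatty acids. The list does not hold every enzyme of either pathway.

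The cells are pre/pro-B cells that grew out of bone marrow of C57BL/6 mice after retroviral transduction with BCR-ABL(p185). The donor mice were homozygous for CDK6-K43M, a kinase inactive CDK6. All 3 lines share this allele and the oncogene, and each line gave 1 library of poly(A) RNA. The wildtype and knockout lines of the study were not analysed here, so no value below is a difference between genotypes, and every test compares libraries of 1 genotype with each other.

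Cells take cholesterol from outside or build it from acetyl-CoA through mevalonate, squalene and lanosterol. The mevalonate route also supplies isoprenoid anchors for signalling proteins. SREBP transcription factors, encoded by *Srebf1* and *Srebf2*, set the level of both pathways. They are made as membrane proteins of the endoplasmic reticulum. The escort SCAP carries them to the Golgi, where they are cut and released to the nucleus, and INSIG proteins hold SCAP back when sterols are abundant. SREBP2 mainly drives sterol genes and SREBP1 mainly fatty acid genes. Fatty acid synthase makes palmitate, which ELOVL6 lengthens and stearoyl-CoA desaturases convert to monounsaturated fatty acids. Growing B cells use these products for new membranes.

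SREBPs act on promoters together with NF-Y, which binds the CCAAT box, and SP1, which binds GC boxes. Promoter sequences of RefSeq on GRCm38.p6 were therefore searched over the 250 bases before each annotated start. The table held a promoter for 24 of the 30 genes, 32 promoters in all. *Fdps*, *Fdft1*, *Sqle*, *Scd1*, *Scd2* and *Fads1* had no entry. The letters CCAAT, on either strand, occurred in 20 of the 32 promoters, or 62.5%, against 33.9% of all 32851 promoters in the table and 35.7% of the 12409 promoters of expressed genes, those with 10 counts or more in sum. The GC box GGGCGG occurred in 23 of the 32, or 71.9%, against 32.7% of all promoters and 56.1% of those of expressed genes. The sterol regulatory element TCACNCCAC was found in 1 promoter, that of *Hmgcs1*, and in 1.05% of all promoters and 0.999% of those of expressed genes. Only these letters were searched over the 250 bases, so a promoter without a match is not shown to lack the element. The NRF-1 motif is GCGC, an A, any base and GCGC. It was found in 4 of the 32, or 12.5%, against 3.74% of all promoters and 8.17% of those of expressed genes. These are matches of letters and not measured binding sites.

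Stretches upstream of 5 genes are shown because the results return to them. *Hmgcs1* acts early in the mevalonate route and holds the sterol element, and *Fasn* had the most reads of the list. *Insig1* encodes an INSIG protein and lies on chromosome 5, where the neighbours of several listed genes shift between lines. *Nsdhl* and *Hsd17b7* differed most between lines among the sterol enzymes. Each stretch is the longest run without an annotated exon in the 250 bases before the start and reads 5′ to 3′ on the strand of the gene, with matches of the 4 motifs in capitals. ATTGG is CCAAT and CCGCCC is GGGCGG on the opposite strand. *Hmgcs1* holds 3 CCAAT boxes, 2 GC boxes and the sterol element TCACCCCAC. *Fasn* holds 3 CCAAT matches, of which CCAAT and ATTGG overlap in CCAATTGG, and the NRF-1 motif on the opposite strand.
*Hmgcs1*, chr13:119690101-119690350, plus strand: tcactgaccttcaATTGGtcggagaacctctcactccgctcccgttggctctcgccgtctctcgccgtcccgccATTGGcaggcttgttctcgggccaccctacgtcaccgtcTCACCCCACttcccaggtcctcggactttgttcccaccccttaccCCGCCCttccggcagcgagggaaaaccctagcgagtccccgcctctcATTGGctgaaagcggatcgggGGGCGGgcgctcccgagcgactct
*Fasn*, chr11:120824548-120824797, minus strand: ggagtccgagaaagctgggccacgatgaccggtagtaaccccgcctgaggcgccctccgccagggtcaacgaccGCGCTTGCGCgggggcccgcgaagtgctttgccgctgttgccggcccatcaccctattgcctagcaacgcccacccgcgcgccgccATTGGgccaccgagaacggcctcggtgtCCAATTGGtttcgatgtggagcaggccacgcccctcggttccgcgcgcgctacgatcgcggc
*Insig1*, chr5:28071162-28071362, plus strand: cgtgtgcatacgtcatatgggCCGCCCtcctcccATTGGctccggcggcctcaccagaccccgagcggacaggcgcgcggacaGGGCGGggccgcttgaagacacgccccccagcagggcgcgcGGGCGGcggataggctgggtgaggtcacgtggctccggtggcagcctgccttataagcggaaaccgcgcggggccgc
*Nsdhl*, chrX:72918412-72918520, plus strand: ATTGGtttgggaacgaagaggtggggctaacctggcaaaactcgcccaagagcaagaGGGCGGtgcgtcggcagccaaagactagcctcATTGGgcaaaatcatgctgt
*Hsd17b7*, chr1:169969242-169969408, minus strand: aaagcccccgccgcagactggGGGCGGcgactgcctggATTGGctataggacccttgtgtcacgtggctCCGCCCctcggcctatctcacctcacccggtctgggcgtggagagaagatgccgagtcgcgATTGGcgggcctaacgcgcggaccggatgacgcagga

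Counts on genes summed to between 19633463 and 25773221 per library. They were scaled with edgeR's TMM method and are given as CPM, the share of a gene in the scaled library total, and levels are mean ± SD over the 3 lines. All 10 markers of precursor B cells were expressed, with a summed level of 3857 to 4360 CPM. The 5 fat cell markers and the 5 stromal markers had 0 counts in each line. Myeloid markers summed to at most 3.93 CPM, erythroid markers to at most 6.44 CPM and T cell markers to between 24.6 and 50.7 CPM, nearly all from *Lck*, while *Cd3e* and *Cd3g* had 0 counts. *Cdk6* itself had 449.5, 334.2 and 239.3 CPM in lines 1, 2 and 3, beside neighbours that deviated by a median of 0.27, -0.01 and -0.28 on the log2 scale. The mutated codon itself cannot be read from gene counts. Blocks of neighbouring genes are shifted between these lines, so the shift of the expressed genes within 5 Mb is given beside the listed genes it touches.

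All 30 genes were read in each line, with at least 43 counts per library. Together they took 0.448% ± 0.0148 of all gene counts (SD, n = 3). The fatty acid enzymes alone took 0.268% ± 0.0110, the 18 cholesterol enzymes 0.0999% ± 0.00274 and the 5 regulators 0.0799% ± 0.00235 (SD, n = 3 each). The summed level of the fatty acid enzymes was 2557, 2655 and 2826 CPM in lines 1, 2 and 3, and that of the cholesterol enzymes was 977, 978 and 1043 CPM. Line 3 was the highest in both sums, and the spread between lines was small beside the distance between the sums.

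**Figure D1:**
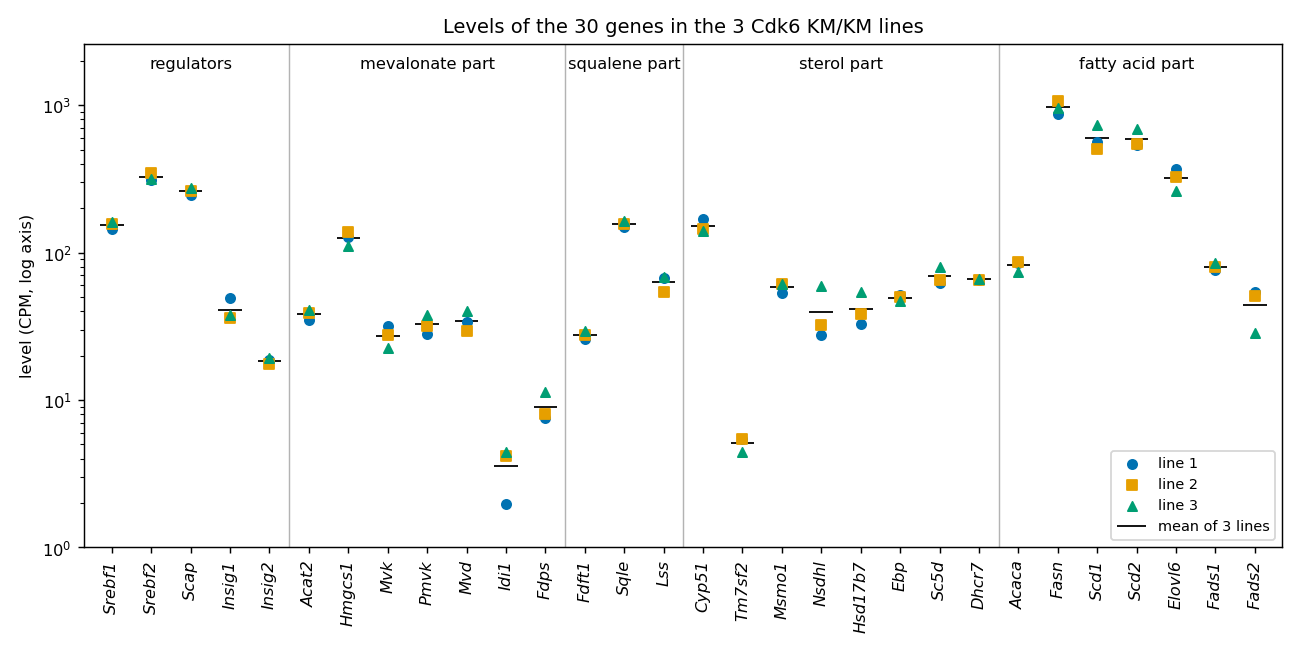
Level of each gene in CPM on a log axis, by role, with a symbol for each of the 3 lines and a bar at their mean. *Fasn*, *Scd1* and *Scd2* are highest and *Idi1*, *Tm7sf2* and *Fdps* lowest, and the lines separate most for *Nsdhl*, *Fads2*, *Idi1* and *Hsd17b7*.

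**Figure D2:**
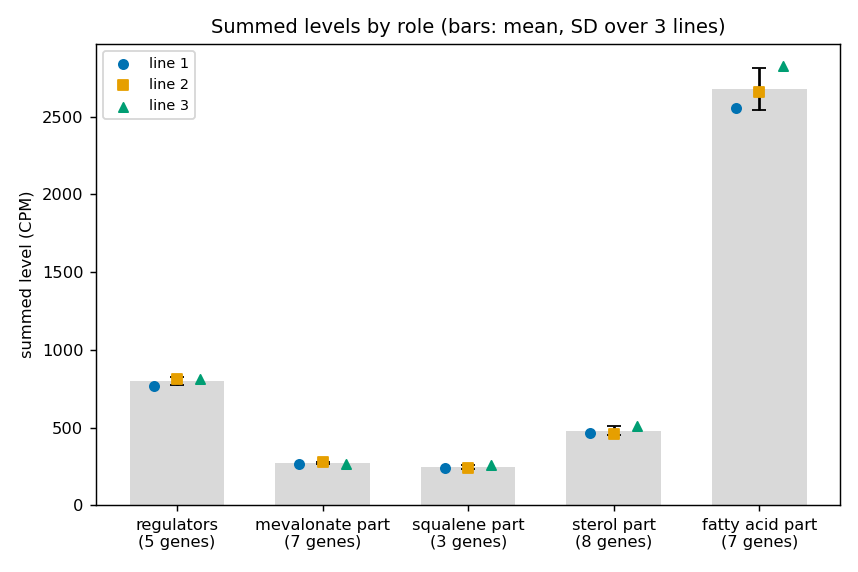
Summed level in CPM of the genes of each role, with bars at the mean, error bars of 1 SD and a symbol for each of the 3 lines. The 7 fatty acid enzymes sum to 2557 to 2826 CPM and the regulators to 768 to 815 CPM. The 3 cholesterol parts are each lower but together sum to 977 to 1043 CPM. Sums are not scaled by length or number of genes.

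Among the regulators, *Srebf2* had 310.5, 345 and 317 CPM in lines 1, 2 and 3, and *Srebf1* had 146, 155 and 162 CPM. The lowest line of *Srebf2* lay above the highest line of *Srebf1*. Per kilobase of exon, *Srebf2* lay at 45.1 ± 2.56 and *Srebf1* at 27.4 ± 1.51 CPM per kb (SD, n = 3), and *Srebf2* was the higher by 1.53 to 1.74 times within a line. *Srebf1* counts pool the transcripts of its alternative starts. *Scap*, the escort of both factors, had 244, 261 and 276 CPM.

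The INSIG genes were lower. *Insig1*, itself a sterol-responsive gene, had 49.2, 36.0 and 37.5 CPM, and *Insig2* had 18.7, 17.5 and 19.2 CPM. *Insig1* stood out in line 1, whereas *Insig2* hardly varied. The neighbours of *Insig1* deviated from the mean of the lines by a median of 0.29, -0.06 and -0.24 on the log2 scale. Per length *Insig1* exceeded *Insig2* by 2.20 to 2.95 times within a line. *Scap* per length, at 35.0 ± 2.14 CPM per kb, exceeded *Insig1* at 13.2 ± 2.34 and *Insig2* at 5.31 ± 0.250 CPM per kb (SD, n = 3 each).

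Among the 7 listed genes of the mevalonate part, which do not cover every step, *Hmgcs1* led with 127, 138 and 111 CPM. Its enzyme condenses acetoacetyl-CoA with acetyl-CoA. *Acat2*, which makes acetoacetyl-CoA in the cytosol, had 34.8, 39.2 and 41.0 CPM. The kinases that phosphorylate mevalonate followed, *Mvk* with 32.0, 27.5 and 22.5 CPM and *Pmvk* with 28.0, 32.0 and 37.9 CPM. In CPM, *Mvk* was the higher in line 1 and *Pmvk* in lines 2 and 3. Per length, *Pmvk* was the higher in each line, with 16.3, 18.7 and 22.1 CPM per kb against 12.0, 10.3 and 8.41 for *Mvk*. The neighbours of *Mvk* deviated by 0.26, -0.04 and -0.19 and those of *Pmvk* by -0.02, 0.01 and 0.04, and with this shift subtracted *Mvk* deviated by -0.02, 0.06 and -0.06. *Mvd*, which yields isopentenyl diphosphate, had 34.1, 29.2 and 40.2 CPM.

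The next steps had the fewest reads of the mevalonate part. *Idi1*, the isomerase of isopentenyl diphosphate, had 43, 83 and 114 counts, or 1.98, 4.20 and 4.48 CPM, beside neighbours at -0.60, 0.18 and 0.47 on the log2 scale. *Fdps*, which builds farnesyl diphosphate, had 165, 159 and 289 counts, or 7.60, 8.05 and 11.3 CPM. Part of this sequence is not unique to the genes. Of the 50-base stretches of its main transcript, the read length the labels give, *Fdps* shared 86.4% with 8 other annotated genes and *Idi1* 30.5% with 5. *Fdps* shares most with *Gm43738*, which had 0 counts in each line. Exons of *Gm43738* on the same strand cover 26.7% of the exon bases of *Fdps*. The treatment of reads that match several places, or exons of several genes, is not given in the sources used here. The levels of *Fdps* and *Idi1* are therefore uncertain.

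In the squalene part, *Sqle*, the monooxygenase that adds oxygen to squalene and is a control point of the route, had 150.2, 156 and 165 CPM. *Lss*, which closes the ring to lanosterol, had 67.4, 53.8 and 68.5 CPM, with line 2 below the others. *Fdft1*, squalene synthase, had 25.9, 27.6 and 29.2 CPM. Per length, *Sqle* at 28.3 ± 1.35 CPM per kb exceeded *Fdft1* at 6.52 ± 0.392 and *Lss* at 5.87 ± 0.759 CPM per kb (SD, n = 3 each), and the ranges of *Fdft1* and *Lss* overlapped. *Lss* was the higher of these with the longest coding transcript as length. *Fdft1* shares 30.7% of its stretches with 2 genes, most with *Ctsb* on the opposite strand, which had 2869 to 3389 counts.

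The sterol part turns lanosterol into cholesterol. *Cyp51*, the demethylase that starts it, was highest with 170.2, 144 and 141 CPM, beside neighbours at 0.27, -0.08 and -0.22 on the log2 scale. *Dhcr7*, the last reductase of the Kandutsch-Russell route, was the steadiest gene of the list, with 65.6, 65.5 and 66.0 CPM and a coefficient of variation of 0.418%. *Sc5d*, which makes the substrate of DHCR7, had 62.4, 64.9 and 79.7 CPM, and *Msmo1*, which removes methyl groups, had 52.8, 61.3 and 61.2 CPM. *Ebp*, the sterol isomerase, had 51.2, 50.2 and 46.6 CPM.

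*Nsdhl* and *Hsd17b7* act with MSMO1 in removing methyl groups from the sterol ring. *Nsdhl* had 27.6, 32.2 and 59.2 CPM and *Hsd17b7* 32.7, 38.3 and 54.0 CPM. Both were highest in line 3 and lowest in line 1. The neighbours of *Nsdhl* deviated by -0.35, -0.25 and 0.63 on the log2 scale and those of *Hsd17b7* by -0.06, 0.04 and 0.02. *Tm7sf2*, a sterol reductase, was the lowest of this part with 5.44, 5.42 and 4.44 CPM, and 12.1% of its exon bases lie in exons of *Vps51* on the same strand.

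The fatty acid part held the highest genes. *Fasn*, fatty acid synthase (ENSMUSG00000025153.9, chr11:120805846-120824547 in mm10), had 874, 1066 and 955 CPM. The stearoyl-CoA desaturase *Scd1* (ENSMUSG00000037071.2, chr19:44394455-44407879) had 564, 507 and 735 CPM, and its neighbour *Scd2* (ENSMUSG00000025203.5, chr19:44293674-44306864) 533, 541 and 685 CPM. Both desaturases were highest in line 3, by 1.45 times over the lowest line for *Scd1* and 1.28 times for *Scd2*. *Elovl6* went the other way, with 370.0, 324 and 263 CPM. *Acaca*, whose product malonyl-CoA is the building block for FASN, had only 85.3, 86.5 and 74.0 CPM.

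Per length, *Scd1* was the highest gene of all with 123 ± 24.2 CPM per kb and *Scd2* came next with 107 ± 15.6 CPM per kb (SD, n = 3 each), with overlapping ranges. The ratio of *Scd1* to *Scd2* per length was 1.18, 1.05 and 1.20 in lines 1, 2 and 3. *Fasn* followed with 88.1 ± 8.78 and *Elovl6* with 49.6 ± 8.34 CPM per kb (SD, n = 3 each). Each of *Scd1*, *Scd2*, *Fasn* and *Elovl6* exceeded every cholesterol enzyme in each line. With the longest coding transcript as length, *Sqle* reached a mean of 57.0 CPM per kb and *Elovl6* 53.6, so *Elovl6* no longer did. *Acaca*, with long exons, had 4.80 ± 0.405 CPM per kb, and 52.6% of its stretches are shared with a processed pseudogene that had 8 to 13 counts.

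The lowest genes per length were *Fdps* with 2.14 ± 0.486, *Tm7sf2* with 1.16 ± 0.130 and *Idi1* with 1.01 ± 0.390 CPM per kb (SD, n = 3 each). In the order of all 30 genes per length, 21 of the 29 neighbouring pairs had overlapping ranges over the lines, so only the coarse order is settled. With the exons of the longest coding transcript in place of all exons, 24 pairs overlapped. Of the 30 genes, 14 shared no 50-base stretch with another annotated gene, 9 shared up to 4.66% and 7 shared more than 10%, namely *Scap*, *Acat2*, *Hmgcs1*, *Idi1*, *Fdps*, *Fdft1* and *Acaca*. Exons of 11 genes overlapped exons of another gene. Reads of a gene on the opposite strand cannot be told apart, since the sources here do not give the strand setting of the counting. On the same strand, as for *Fdps* with *Gm43738* and *Tm7sf2* with *Vps51*, reads in shared exon bases match both genes.

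**Figure D3:**
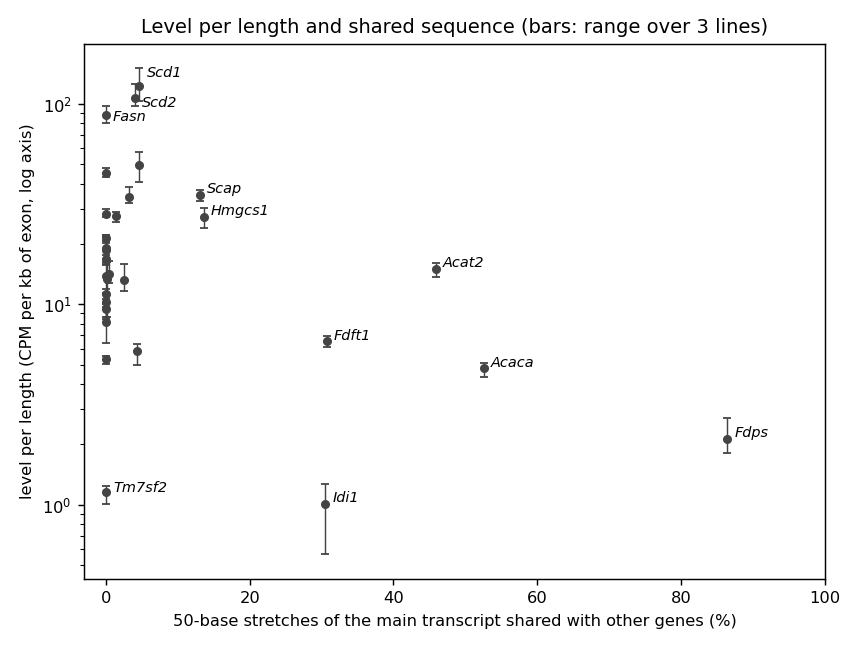
Mean level per length (CPM per kb of exon, log axis, bars from the lowest to the highest of the 3 lines) against the percent of 50-base stretches of the main transcript found in other annotated genes. *Fdps* at 86.4% and *Idi1* at 30.5% are among the 3 lowest genes, with *Tm7sf2*, which shares none.

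Differences between the lines were then set against counting noise with a chi-square test of homogeneity on the counts, with Benjamini-Hochberg adjustment over 13974 genes, those with a sum of 10 counts or more. All 30 genes passed this minimum, and 25 of them differed at an adjusted p of 0.05. The background is high, since 66.8% of all genes tested differed, and 80.1% of those averaging 5 CPM or more. The count stayed at 25 with DESeq2 size factors (background 66.7%), library size alone (67.1%), no filter (45.3%) and 10 counts required in each library (74.6%). With library size alone *Ebp* entered the count and *Fads1* left it, with adjusted p of 0.0275 and 0.0594. It was 18 without line 1 (54.3%), 24 without line 2 (54.5%) and 18 without line 3 (47.1%). The 5 genes that did not pass were *Insig2*, *Fdft1*, *Tm7sf2*, *Ebp* and *Dhcr7*. All 7 genes of the mevalonate part and all 7 of the fatty acid part differed, against 5 of 8 in the sterol part, 4 of 5 regulators and 2 of 3 in the squalene part. When the common dispersion of the lines from edgeR was added to the counting noise, 0 of the 30 genes passed, adjusted or unadjusted, with a smallest unadjusted p of 0.274, against 3.01% of all genes after adjustment and 7.61% before.

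Over the 30 genes the median SD of log2(CPM + 1) was 0.15, the same as over all genes averaging 5 CPM or more, beside 0.17 over all genes tested. It was 0.22 in the mevalonate part, 0.20 in the fatty acid part, 0.14 in the sterol part and 0.08 among the regulators and in the squalene part. Without line 3 the median over the 30 genes fell to 0.0939. Line 3 was the highest for 18 of the 30 genes, or 60.0%, against 37.0% of all genes tested. Line 1 was the lowest for 16, or 53.3%, against 34.5%. Scaled by library size alone, line 3 was the highest for 16 genes, or 53.3%, against 34.0%. Of the genes that both differed and were highest in line 3 there were 15 of 30, where the background is 26.2%.

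On the log2 scale, lines 1, 2 and 3 deviated from their mean by a median of -0.07, -0.01 and 0.09 over the 18 cholesterol enzymes, beside -0.01, 0.00 and 0.00 over all genes tested. Line 3 was the highest for 12 of these enzymes, or 66.7%, against 37.0% of all genes tested. Scaled by library size alone it was the highest for 10, or 55.6%, against 34.0%, and the sign for line 2 turned with that scaling. The median was 0.0374 in line 3 without line 1 and -0.0311 in line 1 without line 3, and that of line 2 was -0.0374 without line 1 and 0.0311 without line 3. The fatty acid enzymes had no common line, with medians of -0.07, 0.04 and -0.01. *Scd1* and *Scd2* were highest in line 3, and *Elovl6*, *Acaca* and *Fads2* were lowest there.

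Of the listed genes averaging 5 CPM or more, *Nsdhl*, *Fads2*, *Hsd17b7*, *Scd1* and *Fdps* had the 5 largest ranges. The range of log2(CPM + 1) was 1.07 for *Nsdhl*, 0.90 for *Fads2*, 0.71 for *Hsd17b7*, 0.53 for *Scd1* and 0.52 for *Fdps*. Of all genes tested, 9.73% had a larger range than *Nsdhl* and 13.2% a larger one than *Fads2*. The call for *Fads2* and for *Fdps* was lost without line 3, with adjusted p of 0.212 and 0.723 in the chi-square test between lines 1 and 2.

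*Fads2* and *Fads1*, desaturases of polyunsaturated fatty acids, lie next to each other on chromosome 19. *Fads1* (ENSMUSG00000010663.4, chr19:10182888-10196877) had 76.8, 79.8 and 84.8 CPM, and *Fads2* (ENSMUSG00000024665.7, chr19:10062765-10101746) 53.7, 50.4 and 28.4 CPM. *Fads2* was lowest in line 3, where *Fads1* was highest. Per length the ratio of *Fads1* to *Fads2* was 0.979, 1.08 and 2.05 in lines 1, 2 and 3, and 1.30 at the lowest with the longest coding transcript as length. The 128 expressed genes within 5 Mb of *Fads2* had a median deviation of -0.04, 0.02 and 0.05, so the fall of *Fads2* by 0.57 below the mean of the lines was not shared by its neighbours.

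The neighbours of *Nsdhl* moved with it. *Nsdhl* (ENSMUSG00000031349.4, chrX:72918557-72958514) deviated by -0.43, -0.21 and 0.64 in lines 1, 2 and 3 on the log2 scale, and the 53 expressed genes within 5 Mb by a median of -0.35, -0.25 and 0.63. With the neighbours' shift subtracted, the range of *Nsdhl* was 0.11. *Ebp*, elsewhere on the X chromosome (chrX:8185329-8193512), had neighbours at -0.04, 0.04 and 0.00. Its difference between lines did not pass the test, with an adjusted p of 0.0873. It passed with library size alone and without line 2, with adjusted p of 0.0275 and 0.0219.

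Such shifts touched 5 of the 30 genes, whose neighbours differed between lines by 0.45 to 1.06 on the log2 scale, while for the other 25 genes this range was at most 0.14. This limit was set after the values were seen. *Idi1* on chromosome 13 deviated by -0.56, 0.24 and 0.32, close to its neighbours in lines 1 and 2. *Insig1*, *Mvk* and *Cyp51* lie far apart on chromosome 5, with starts at 28071363, 114444269 and 4081145. Their neighbours were high in line 1, by 0.29, 0.26 and 0.27. *Cdk6* starts at 3341485 on this chromosome, within 5 Mb of *Cyp51*, and counts among the neighbours of *Cyp51*. The neighbours of *Cdk6*, also high in line 1 by 0.27, come from an overlapping window and are not a separate observation. *Mvk* deviated by 0.23, 0.02 and -0.26. The call of *Insig1*, *Cyp51* and *Idi1* was lost without line 1.

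Over these 5 genes the median range fell from 0.49 to 0.21 when the neighbours' shift was subtracted. For the other 25 it was 0.24 before and 0.27 after. *Hsd17b7* on chromosome 1 (ENSMUSG00000026675.12, chr1:169949535-169969241), which deviated by -0.31, -0.09 and 0.40, had neighbours at -0.06, 0.04 and 0.02 and kept a range of 0.63. *Scd1*, *Elovl6* and *Fdps* kept ranges of 0.49, 0.53 and 0.46, with neighbours within 0.05 of the mean in each line.

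**Figure D4:**
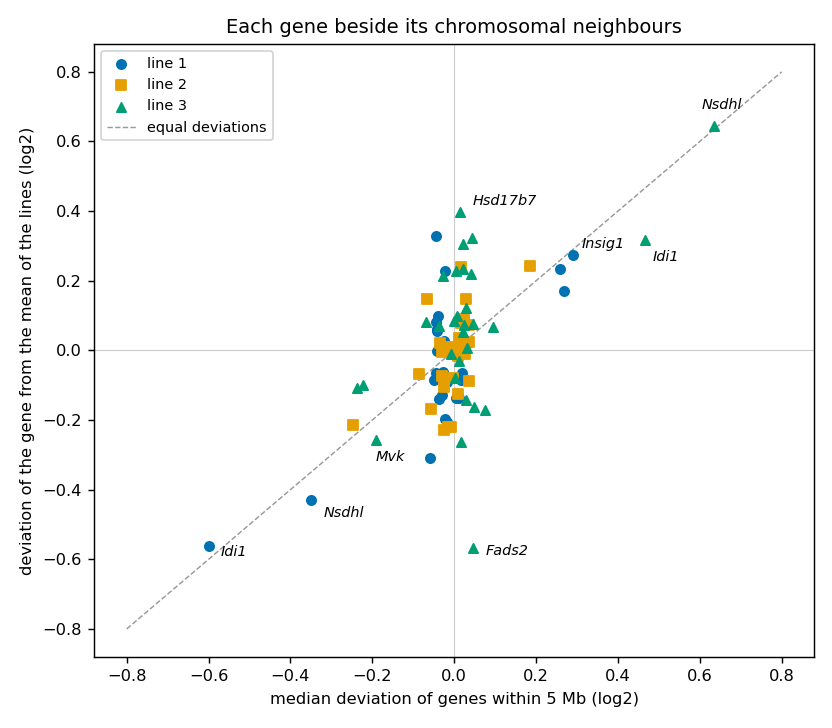
Deviation of each gene from the mean of the lines against the median deviation of expressed genes within 5 Mb, both on the log2 scale, with a symbol for each gene in each of the 3 lines and a dashed line of equal deviations. *Nsdhl*, *Idi1*, *Insig1* and *Mvk* lie near the dashed line away from 0, and *Fads2* and *Hsd17b7* in line 3 lie far from it with neighbours near 0.

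Further genes of the pathway were taken from a list of 45, which covers SREBP proteases, sterol export and transport, isoprenoid branches, acetyl-CoA supply, elongation and glycerolipid synthesis. Of these, 39 passed the count minimum and 35 differed between lines beyond counting noise. The background is again 66.8% of all genes, and 80.1% of those averaging 5 CPM or more, as 31 of this list did. Several paralogs had few reads. *Idi2* had 0 counts in each line, *Scd3* at most 1 and *Scd4* at most 9 counts, and *Fads3* at most 0.875 CPM. *Acacb*, the carboxylase tied to fatty acid oxidation, had 2.99, 1.57 and 2.04 CPM, far below *Acaca*. *Acat1*, the mitochondrial thiolase, had 211, 192 and 221 CPM. The elongases *Elovl1*, with 128, 105 and 128 CPM, and *Elovl5*, with 149, 147 and 185 CPM, were also well expressed, and *Elovl3* had at most 5 counts. These 3 relatives of *Elovl6* were named after their values were seen.

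*Mylip*, *Gpam*, *Ggps1*, *Npc1* and *Mbtps2* had the 5 largest ranges of this list among genes averaging 5 CPM or more. *Mylip*, a ubiquitin ligase that targets lipoprotein receptors, had 5.30, 15.8 and 8.13 CPM, and *Gpam*, which starts glycerolipid synthesis, 54.0, 104 and 67.7 CPM. *Npc1*, which exports cholesterol from lysosomes, had 19.1, 35.8 and 24.6 CPM. These 3 genes were highest in line 2. *Ggps1*, which makes geranylgeranyl diphosphate, had 17.3, 14.4 and 27.3 CPM, and *Mbtps2*, the protease that frees SREBPs from the membrane, 34.6, 38.2 and 59.0 CPM. Both were highest in line 3. Neighbours of *Mylip*, *Ggps1* and *Mbtps2* were shifted by 0.45, 0.51 and 0.50 in the line where each was highest, whereas those of *Gpam* and *Npc1* lay at -0.01 and -0.02 in line 2.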

How the data were processed

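Poly(A) RNA of 3 *Cdk6* KM/KM lines was analysed. Per the paper's methods, the authors trimmed reads (trimmomatic), aligned them to mm10 (STAR) and deposited raw counts of reads on exons of Gencode M13 genes (FeatureCounts), without normalization. As library kit, TruSeq stands in the paper and SENSE in the labels. The 6 columns of other samples in the table were not used. Of 50686 genes, 50376 were matched to Gencode M21 (also GRCm38). Rows naming no gene numbered 0.

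Scaling was by TMM (edgeR 4.0.16, R 4.3.3), and log values are log2(CPM + 1). A count of 3, the limit that a count of 0 allows, is 0.118 to 0.152 CPM per library. Differences between lines were tested by chi-square on genes with at least 10 counts (Python 3.11.15, scipy 1.17.1), and no library was a duplicate, since any pair differed at no fewer than 6099 genes. Whether the lines came from separate mice is not stated. In the main setting the p-values set differences between these libraries against counting noise only. They do not measure how far lines or mice of this genotype vary. Lengths are merged exons, and 50-base stretches were searched in annotated transcripts on both strands. The script was tested on simulated data.

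Members and lists were chosen with earlier results of these data known, and motifs, printed promoters and the limit on neighbour shifts after values were seen. All members are named. From the further list, the 5 genes with the largest range at a mean of at least 5 CPM and a set of close paralogs of members are named, except for 1 that is not reported here. Other settings tried were size factors of DESeq2 1.42.0, unscaled library sizes, other filters, a pseudocount of 0.1 CPM, added dispersion, a total without mitochondrial genes, other lengths and windows, and leaving out each line.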

Additional observations from a re-analysis of the deposited data

How the results depend on the processing

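No paired analysis was possible because a single genotype was analysed. The number of genes of the list that differed between lines stayed at 25 with DESeq2 size factors, library size alone and both other filters, though *Ebp* replaced *Fads1* with library size alone, ranged from 18 to 24 with 1 line left out, and was 0 with the common dispersion added to counting noise, a setting that allows each gene the common spread of the lines. The median SD of log2(CPM + 1) ranged from 0.0939 to 0.154 with 1 line left out, lowest without line 3. With 1 line left out, the median deviation of the cholesterol enzymes ranged from -0.0852 to -0.0311 in line 1, from -0.0374 to 0.0311 in line 2 and from 0.0374 to 0.0852 in line 3. That of the fatty acid enzymes ranged from -0.0551 to -0.0085 in line 1, from 0.01 to 0.08 in line 2 and from -0.0792 to 0.0551 in line 3, so its sign in line 3 is not settled. With neighbours within 2 Mb, the shift in line 3 was -0.0156 around *Fads2* and -0.0312 around *Scd1*. The cause was not tested. Depth limits *Idi1* most, with 43 to 114 counts.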
